A study of Mus musculus with 16 samples.

Results

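Oxidative phosphorylation is carried out by 5 protein complexes of the inner mitochondrial membrane, and the transcripts of their nuclear-encoded subunits were examined in mouse hearts after ischemia and reperfusion. The genes were chosen by symbol alone: those beginning with Nduf followed by a, b, c, s or v and a number, with Uqcr, with Cox4 to Cox8 or with Atp5, together with Cyc1 and Sdha to Sdhd. This took in 85 of the 19505 genes tested, made up of 37 genes named for complex I, 4 for complex II, 9 for complex III, 18 for complex IV and 17 for complex V. Each of the 85 had a single probe set. They lay on 19 chromosomes, with at most 8 on any 1. A total of 81 had a mean log2 signal at or above 6.76, a level that 75% of the negative controls stayed under and that is used here as background. The other 4 (Cox4i2, Cox6b2, Cox7b2 and Cox8c, tissue-restricted isoforms of complex IV) had lower means, so the sizes of their changes depend on the background.

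Complex I takes electrons from NADH and complex II from succinate, and both pass them by ubiquinone to complex III, from which cytochrome c carries them to oxygen at complex IV. Complexes I, III and IV pump protons, and complex V, the ATP synthase, uses the returning protons to make ATP. The heart depends on this pathway for nearly all of its ATP, and cardiomyocytes are packed with mitochondria. Several complex IV subunits exist as a heart and skeletal muscle isoform and a ubiquitous isoform.

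The study used 10-week-old male mice of the C57BL/6 strain, labelled wild type. In 3 groups the left anterior descending coronary artery, the main supply of the front of the left ventricle, was held shut for 30 min, and blood flow then returned for 6, 24 or 72 h. The fourth group had sham surgery. Each group had 4 arrays of total RNA from hearts, 16 in all, and the labels do not say whether each array held the RNA of 1 heart. The comparisons set each time of reperfusion beside sham and the times beside each other. The sham labels give no hours after surgery and the same sham arrays serve all 3 times, so time since surgery and time of reperfusion cannot be told apart. The RNA is labelled as coming from hearts, with no word on which part was taken, and only part of a heart lies downstream of the tie. In such a mixture, fewer cells of a type and less RNA per cell cannot be told apart.

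Values below are the deposited log2 signals, or differences between group means of those signals ± SE over 4 and 4 arrays. "Rose" and "fell" are kept for genes whose adjusted p in limma's moderated test, with Benjamini-Hochberg adjustment over 19505 genes, was below 0.05. The deposited scale reaches 19.82, above a scanner's plain log2 range, and may stretch the folds. Array medians lay between 5.84 and 5.95. The control transcripts added to each array moved with the groups, and their choice as a yardstick shifts all genes together. On the deposited scale all genes together had a median change from sham of -0.04 at 6 h, -0.07 at 24 h and -0.09 at 72 h. It became -0.26, 0.24 and 0.40 when arrays were centred on the hybridization spike-ins. It became -0.37, -0.16 and 0.09 with poly-A control transcripts, put in before labelling, as the yardstick, and -0.01, -0.14 and -0.20 with array medians. The median of the 85 subunit genes minus that of all genes was -0.01 at 6 h. It was -0.36 at 24 h and -0.30 at 72 h. These gaps are the same under each of those centrings by arithmetic, since each moves all genes of an array alike, so their sameness tests nothing. The median over all genes lay below background on every array, at 5.87 to 6.07. Genes with a sham mean of at least 12 are compared below. The subunit genes are described on the deposited scale, beside these relative values.

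At 24 h of reperfusion 82 of the 85 subunit genes lay below their mean in sham hearts, with a median change of -0.43 and a median below 0 in each of the 5 complexes. Of the 85 genes, 44 fell and 0 rose, and 62 had all 4 arrays at 24 h below all 4 sham arrays. Among all genes tested, 12.3% fell and 13.8% rose at 24 h, and 13.0% had arrays of the 2 groups that did not overlap with 24 h lower. At 72 h 35 fell and 0 rose, with a median of -0.39, and 57 did not overlap with sham and were lower. The shares over all genes at 72 h were 10.3% fallen, 11.5% risen and 14.4% lower without overlap. At 6 h, 4 fell (Ndufa4l2, Cox8c, Cox6a1 and Cox8a) and 0 rose, with a median of -0.05, against 12.3% fallen and 7.92% risen among all genes. That count was 1 without sham replicate 2 or 4 or 6 h replicate 7 or 10, and 1 to 4 over all arrays left out in turn. With hybridization spike-in centring the subunit median was -0.27 at 6 h, -0.12 at 24 h and 0.11 at 72 h, so that at 72 h its sign turned. The counts became 10 fallen and 2 risen at 24 h and 0 fallen and 7 risen at 72 h. Under that centring 4.31% of all genes fell and 23.3% rose at 24 h, and 1.27% fell and 37.3% rose at 72 h. With poly-A spike-in centring the medians were -0.39, -0.52 and -0.20 at 6, 24 and 72 h, with 15, 37 and 7 genes fallen. Of all genes, 31.2%, 12.7% and 3.025% fell under poly-A centring. The count at 72 h also leaned on single arrays: it was 21 without replicate 20 of the 72 h group and 22 without replicate 23.

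**Figure D1:**
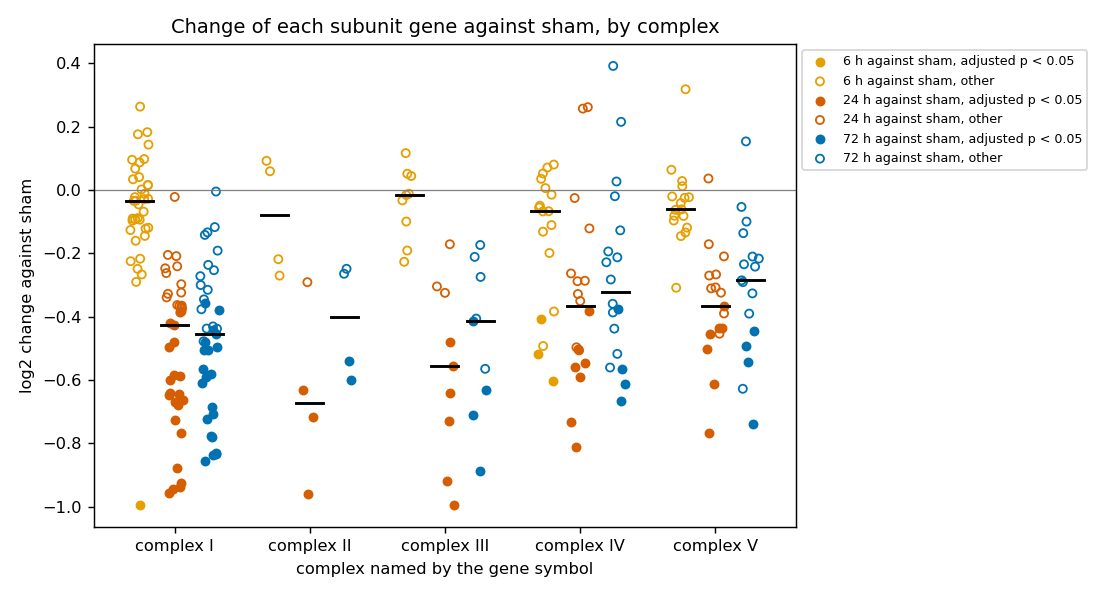
Each point is the log2 change of 1 subunit gene between 4 reperfused and 4 sham arrays (vertical axis), arranged by the complex its symbol names and by time; filled points passed an adjusted p of 0.05 and black bars are medians over the genes. At 24 h the medians run from -0.67 in complex II to -0.37 in complexes IV and V, and Cox6a1 and Cox8a stand above 0. With hybridization spike-in centring all 5 medians at 72 h lie above 0 and below the median of all genes, 0.40.

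Most of these genes are bright, and a larger share of all bright genes than of all genes tested (12.3%) fell at 24 h. Of the 85, 74 had a sham mean of at least 12. At 24 h 40 of those 74 fell (54.1%), against 36.7% of all 1709 genes with such a mean. The limit of 12 is a floor: the 1709 genes, called bright here, include the 74 and were not matched to them for signal. At 72 h it was 31 of 74 (41.9%), against 28.3%, and at 6 h 2 of 74 (2.70%), against 22.2%. The median change of the bright subunit genes was -0.40 at 24 h and -0.38 at 72 h, and that of all bright genes was -0.22 and -0.20. Within the 85 genes, the median change at 24 h was -0.50 for those with a sham signal under 12 (n = 11), -0.64 from 12 to 14 (n = 14), -0.55 from 14 to 16 (n = 23), -0.34 from 16 to 18 (n = 29) and -0.27 from 18 to 20 (n = 8). The changes were thus smaller toward the brightest genes from 12 upward, while the dimmest genes lay between. At 72 h the medians in the same order were -0.56, -0.53, -0.45, -0.30 and -0.19. Spearman's rho between sham signal and change over the 85 genes was 0.36 at 24 h, 0.40 at 72 h and -0.05 at 6 h, given as a description since the genes share arrays and the sham mean enters both measures. Whether signal near the top of the scale is compressed was not tested.

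**Figure D2:**
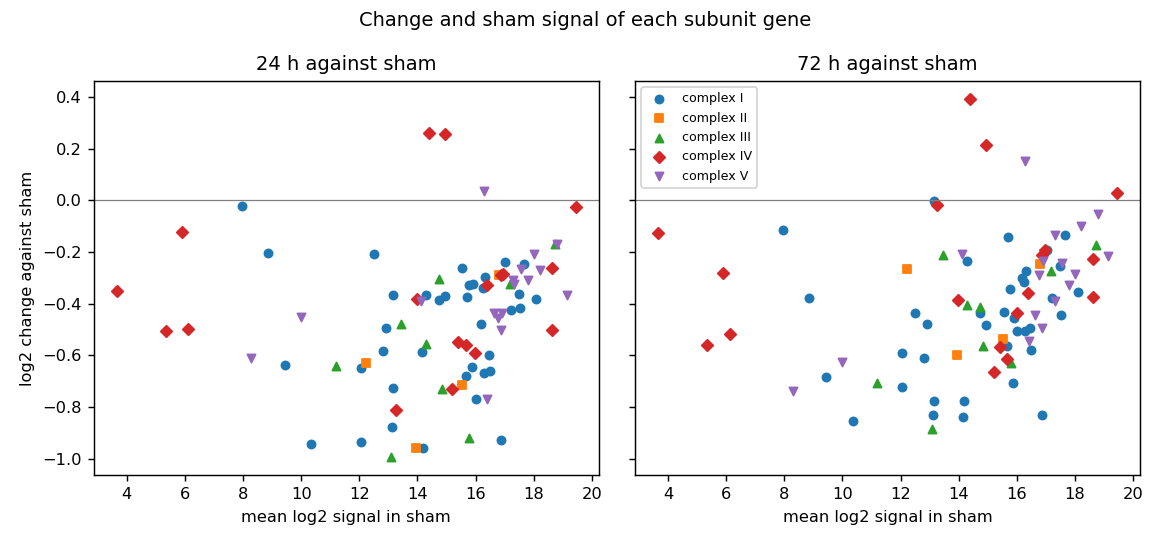
Each point is 1 subunit gene, with its mean log2 signal over 4 sham arrays on the horizontal axis, its log2 change against sham on the vertical axis, and its complex given by colour and shape. At 24 h the 8 genes with a sham signal of 18 to 20 have a median change of -0.27, against -0.64 for the 14 genes with a sham signal of 12 to 14.

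Complex I, the NADH dehydrogenase, had 21 of 37 genes (56.8%) fallen at 24 h (median -0.43) and 21 of 37 at 72 h (median -0.45). Among all genes 12.3% fell at 24 h and 10.3% at 72 h. Among genes with a sham mean of at least 12 it was 36.7% and 28.3%. By role, 4 of 6 core subunits, which carry the flavin and the iron-sulfur clusters or line the quinone site, and 17 of 30 accessory subunits fell at 24 h, and as many of each fell at 72 h. With hybridization spike-in centring the complex I median was -0.12 at 24 h, with 7 fallen, and 0.04 at 72 h, with 0 fallen and 1 risen. For this and the other complexes, the shares of all genes under that centring were 4.31% fallen and 23.3% risen at 24 h. At 72 h they were 1.27% and 37.3%. Ndufs4 encodes an accessory subunit of the peripheral arm whose loss impairs complex I in mice and patients. Its log2 signal was 13.51, 12.75, 13.16 and 13.53 in 24 h hearts, against 14.23, 14.23, 14.19 and 14.12 in sham hearts. The groups did not overlap, and replicate 15 was the lowest of the 24 h arrays. Ndufs4 fell by 0.96 ± 0.17 at 24 h (adjusted p = 0.000329) and by 0.78 at 72 h (adjusted p = 0.00262), and its 72 h values were 13.08, 13.56, 13.68 and 13.34, also without overlap.

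Ndufv3, an accessory subunit at the NADH-oxidising tip, had values of 9.35, 9.41, 9.29 and 9.57 in 24 h hearts and 9.50, 9.58, 9.70 and 9.21 in 72 h hearts, against 10.32, 10.14, 10.29 and 10.65 in sham hearts. Neither reperfused group overlapped with sham. It fell by 0.94 ± 0.15 at 24 h (adjusted p = 7.04e-05) and by 0.85 ± 0.15 at 72 h (adjusted p = 0.000249). Ndufb10, in the proton-pumping membrane arm, had values of 11.38, 10.58, 11.29 and 11.17 in 24 h hearts, against 12.21, 12.01, 11.91 and 12.04 in sham hearts. Every 24 h array lay below every sham array, and Ndufb10 fell by 0.94 ± 0.18 (adjusted p = 0.000499). At 72 h it fell by 0.72 ± 0.18 (adjusted p = 0.00566).

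Other complex I genes with large falls at 24 h were Ndufa8 (-0.93) and Ndufs5 (-0.88), small proteins of the intermembrane space side, and Ndufs1 (-0.77), the largest iron-sulfur core subunit. Ndufs7, which holds the cluster that hands electrons to ubiquinone, fell by 0.66 ± 0.16, and Ndufv1, which binds the flavin and NADH, fell by 0.43 ± 0.13. For Ndufv1 at 24 h the call was lost without sham replicate 3 or 24 h replicate 15 (adjusted p 0.0521 to 0.0688). The core subunit genes Ndufv2 and Ndufs8 did not pass the test at 24 h, with changes of -0.37 ± 0.18 (adjusted p = 0.133) and -0.33 ± 0.15 (adjusted p = 0.127). The smallest changes at 24 h apart from Ndufa4l2 were those of Ndufa7 (-0.20), Ndufa2 (-0.21), Ndufa12 (-0.24) and Ndufb9 (-0.25), none of which passed.

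**Figure D3:**
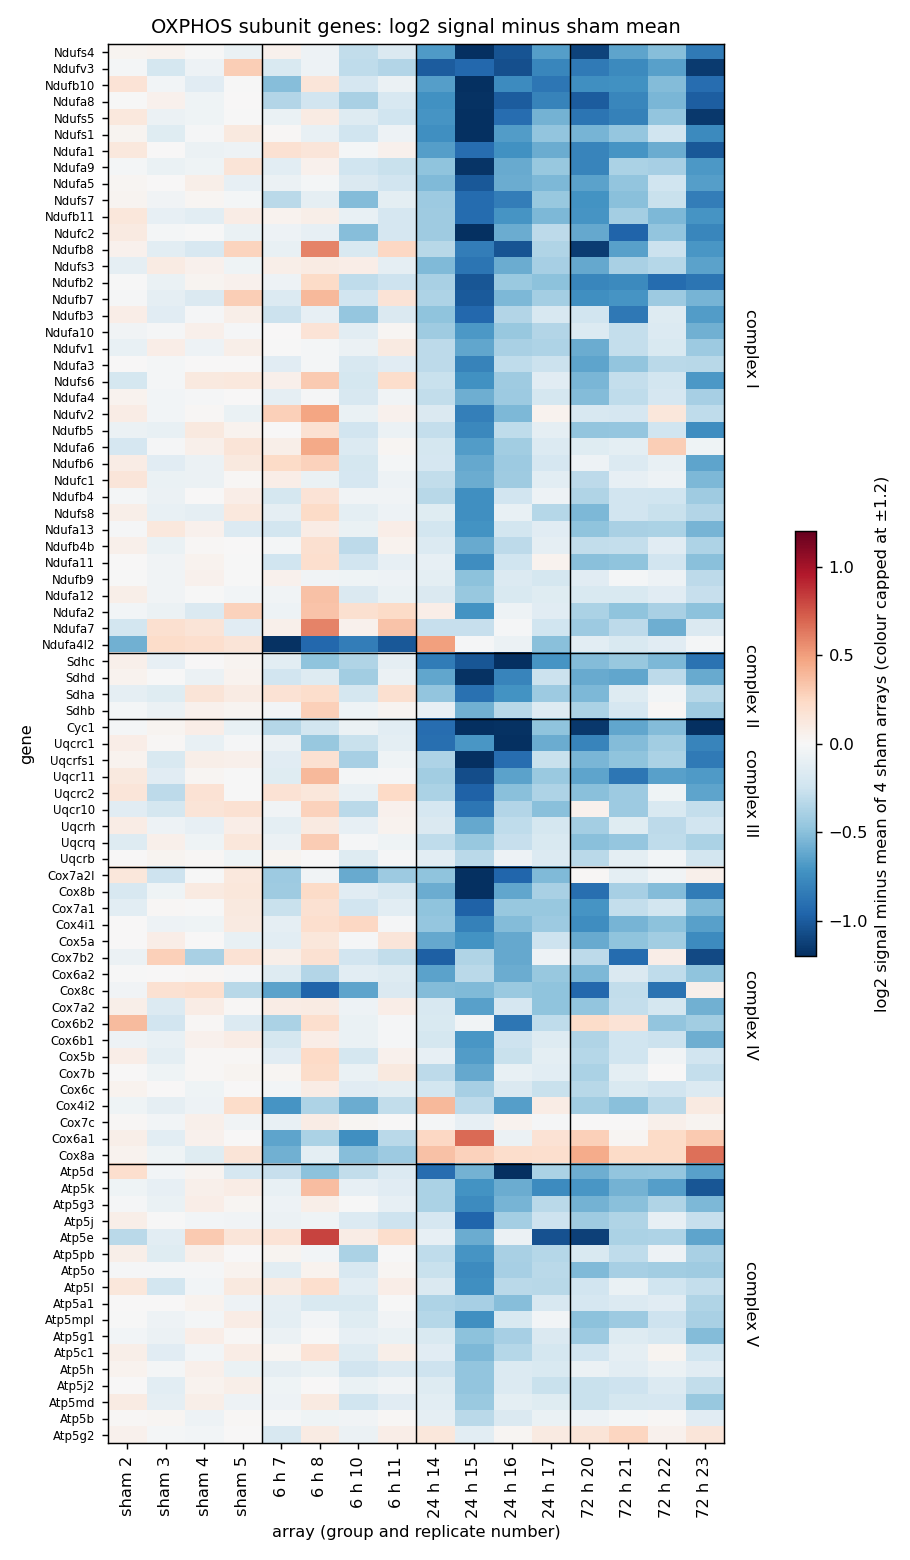
Rows are the 85 subunit genes, grouped by complex and ordered within each by their change at 24 h; columns are the 16 arrays by group and replicate, and colour is the log2 signal minus the mean of the 4 sham arrays, capped at ±1.2. Blue runs through the 24 h and 72 h columns of all 5 complexes, deepest in replicate 15 at 24 h, whose median over the genes is -0.72, while Cox6a1 and Cox8a are blue at 6 h and red on most 24 h and 72 h arrays.

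Complex II, succinate dehydrogenase, also works in the citric acid cycle, and here all its subunits are nuclear-encoded. At 24 h 3 of 4 genes fell (median -0.67), and at 72 h 2 of 4 fell (median -0.40). The shares over genes with a sham mean of at least 12 were 36.7% and 28.3%. Centred on the hybridization spike-ins, 1 fell at 24 h and 0 at 72 h, with medians of -0.36 and 0.09. Both membrane anchors, which bind ubiquinone, fell at both times. Sdhc had values of 13.10, 12.92, 12.68 and 13.23 in 24 h hearts, against 14.01, 13.84, 13.95 and 13.98 in sham hearts, without overlap. It fell by 0.96 ± 0.15 at 24 h (adjusted p = 7.59e-05) and by 0.60 ± 0.15 at 72 h (adjusted p = 0.00639). Sdhd had values of 14.92, 14.35, 14.75 and 15.28 in 24 h hearts, against 15.58, 15.53, 15.47 and 15.58 in sham hearts. Its 24 h arrays were spread widely but all lay below sham, and it fell by 0.72 ± 0.16 (adjusted p = 0.00278). For Sdhd at 72 h the call was lost without sham replicate 2 or 5 or 72 h replicate 20, 21 or 23 (adjusted p 0.05 to 0.0626).

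Sdha, the flavoprotein that oxidises succinate, had values of 11.75, 11.33, 11.51 and 11.79 in 24 h hearts, against 12.12, 12.08, 12.38 and 12.32 in sham hearts. It fell by 0.63 ± 0.16 (adjusted p = 0.00466), with no overlap, and its change at 72 h was -0.26 ± 0.16 (adjusted p = 0.25). Sdhb, the iron-sulfur subunit, had values of 16.70, 16.22, 16.47 and 16.65 in 24 h hearts, against 16.78, 16.74, 16.86 and 16.84 in sham hearts. All 4 of its 24 h arrays were below sham, yet the change of -0.29 ± 0.14 (adjusted p = 0.155) did not pass.

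In complex III, the cytochrome bc1 complex, 6 of 9 genes (66.7%) fell at 24 h (median -0.56) and 4 of 9 (44.4%) at 72 h (median -0.41). The shares over genes with a sham mean of at least 12 were 36.7% and 28.3%. The complex III counts became 2 and 0 with hybridization spike-in centring, with medians of -0.25 and 0.08. The 2 redox subunits and the 2 core proteins all fell at 24 h, along with 2 of 5 small subunits. Cyc1, cytochrome c1, which passes electrons to cytochrome c, had the largest of the 85 changes at 24 h on the deposited scale. Its values were 12.17, 11.70, 11.89 and 12.60 in 24 h hearts and 11.93, 12.46, 12.57 and 11.84 in 72 h hearts, against 13.06, 13.12, 13.16 and 13.00 in sham hearts. Neither reperfused group overlapped with sham. Cyc1 fell by 0.99 ± 0.19 at 24 h (adjusted p = 0.000567) and by 0.89 ± 0.19 at 72 h (adjusted p = 0.00197).

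Uqcrc1 and Uqcrc2 are the core proteins, related to mitochondrial processing peptidases. Uqcrc1 had values of 14.88, 15.09, 14.31 and 15.19 in 24 h hearts, against 15.87, 15.80, 15.70 and 15.78 in sham hearts. The groups did not overlap, and it fell by 0.92 ± 0.17 (adjusted p = 0.000463). Uqcrfs1, the Rieske iron-sulfur protein, had values of 14.48, 13.49, 13.94 and 14.59 in 24 h hearts, against 14.90, 14.67, 14.93 and 14.92 in sham hearts. Replicate 17 was nearest to sham and replicate 15 far below, and Uqcrfs1 fell by 0.73 ± 0.20 (adjusted p = 0.011). Uqcrb, a small subunit near the quinone site, was -0.17 ± 0.12 (adjusted p = 0.335) at 24 h.

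In complex IV, cytochrome c oxidase, 7 of 18 genes (38.9%) fell at 24 h (median -0.37) and 4 of 18 (22.2%) at 72 h (median -0.32). Among all genes 12.3% and 10.3% fell, and among those with a sham mean of at least 12, 36.7% and 28.3%. The complex IV share was thus near that of bright genes at 24 h and below it at 72 h, with 4 of its genes below background. Under hybridization spike-in centring 0 fell and 2 rose at 24 h and 0 fell and 3 rose at 72 h, with medians of -0.06 and 0.18. All 3 heart and muscle isoforms, Cox6a2, Cox7a1 and Cox8b, fell at 24 h, and 2 of 5 ubiquitous isoforms did. Cox8b had values of 14.61, 13.89, 14.58 and 14.81 in 24 h hearts, against 15.01, 15.15, 15.31 and 15.33 in sham hearts. All 24 h arrays were lower, replicate 15 by the most, and Cox8b fell by 0.73 ± 0.19 at 24 h (adjusted p = 0.00754) and by 0.66 ± 0.19 at 72 h (adjusted p = 0.0176). For Cox8b at 72 h the call was lost without 72 h replicate 20 or 23 (adjusted p 0.058 to 0.0629). Cox7a1 had values of 15.51, 15.03, 15.54 and 15.54 in 24 h hearts, against 15.87, 16.01, 15.99 and 16.11 in sham hearts. Without overlap, it fell by 0.59 ± 0.16 (adjusted p = 0.00827).

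Cox6a2 had values of 17.9995, 18.32, 18.04 and 18.19 in 24 h hearts, against 18.63, 18.64, 18.65 and 18.62 in sham hearts, which were nearly equal. It fell by 0.50 ± 0.13 at 24 h (adjusted p = 0.00608) and by 0.37 ± 0.13 at 72 h (adjusted p = 0.0427), where hybridization spike-in centring turned it to 0.12. For Cox6a2 at 72 h the call was lost on leaving out any 1 of 7 of the 16 arrays (adjusted p 0.0555 to 0.131). Its ubiquitous counterpart Cox6a1 had values of 15.01, 14.82, 14.996 and 14.94 in sham hearts, 14.31, 14.56, 14.21 and 14.62 in 6 h hearts, 15.19, 15.62, 14.87 and 15.11 in 24 h hearts and 15.23, 14.97, 15.17 and 15.26 in 72 h hearts. The 6 h arrays lay below all others, and the 24 h arrays reached from within the sham range to above it. Cox6a1 fell by 0.52 ± 0.16 at 6 h (adjusted p = 0.0225), and was 0.26 ± 0.16 (adjusted p = 0.254) at 24 h and 0.22 ± 0.16 (adjusted p = 0.362) at 72 h. For Cox6a1 at 6 h the call was lost without sham replicate 2 or 4 or 6 h replicate 7 or 10 (adjusted p 0.0564 to 0.0774).

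Cox8a, the ubiquitous counterpart of Cox8b, had values of 14.45, 14.36, 14.26 and 14.56 in sham hearts, 13.83, 14.29, 13.90 and 13.98 in 6 h hearts, 14.76, 14.68, 14.62 and 14.61 in 24 h hearts and 14.86, 14.64, 14.63 and 15.07 in 72 h hearts. All 4 arrays at 24 h and at 72 h were above all 4 sham arrays. It fell by 0.41 ± 0.14 at 6 h (adjusted p = 0.0484), and was 0.26 ± 0.14 (adjusted p = 0.197) at 24 h and 0.39 ± 0.14 (adjusted p = 0.0553) at 72 h. For Cox8a at 6 h the call was lost on leaving out any 1 of 14 of the 16 arrays (adjusted p 0.0508 to 0.137). Between times, Cox8a rose by 0.67 ± 0.14 at 24 h against 6 h (adjusted p = 0.00138) and Cox6a1 rose by 0.78 ± 0.16 (adjusted p = 0.000882).

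The difference between 2 isoforms on 1 array does not depend on how arrays are centred. For 6 pairs and 3 times, 18 differences were compared with sham by a two-sided exact permutation test, whose smallest possible p with 4 against 4 arrays is 0.0286. Cox8b minus Cox8a was -0.16, -0.80, -0.04 and 0.20 in 24 h hearts and -0.56, 0.17, 0.05 and -0.71 in 72 h hearts, against 0.56, 0.79, 1.05 and 0.78 in sham hearts. Neither group overlapped with sham, and the change was -0.99 ± 0.24 at 24 h and -1.06 ± 0.24 at 72 h. Cox6a2 minus Cox6a1 was 2.81, 2.70, 3.17 and 3.07 in 24 h hearts and 2.87, 3.50, 3.16 and 2.90 in 72 h hearts, against 3.62, 3.83, 3.66 and 3.68 in sham hearts. Here too the groups did not overlap, with changes of -0.76 ± 0.12 and -0.59 ± 0.15. These 4 differences had an exact p of 0.0286, as did Cox4i2 minus Cox4i1 and Ndufa4l2 minus Ndufa4 at 6 h. After Benjamini-Hochberg adjustment over 18 this became 0.0857, so none of the 18 passed. With so few arrays, a difference could pass only if most of the 18 reached the smallest possible p. Not passing is therefore no sign that these differences were unchanged. Cox7a1 minus Cox7a2 changed less, by -0.21 ± 0.12 at 24 h (exact p = 0.143), with both genes fallen. Cox7a2 had values of 13.79, 13.33, 13.78 and 13.50 in 24 h hearts, against 14.05, 13.81, 14.07 and 13.99 in sham hearts. For Cox7a2 at 24 h the call was lost on leaving out any 1 of 13 of the 16 arrays (adjusted p 0.0507 to 0.168).

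**Figure D4:**
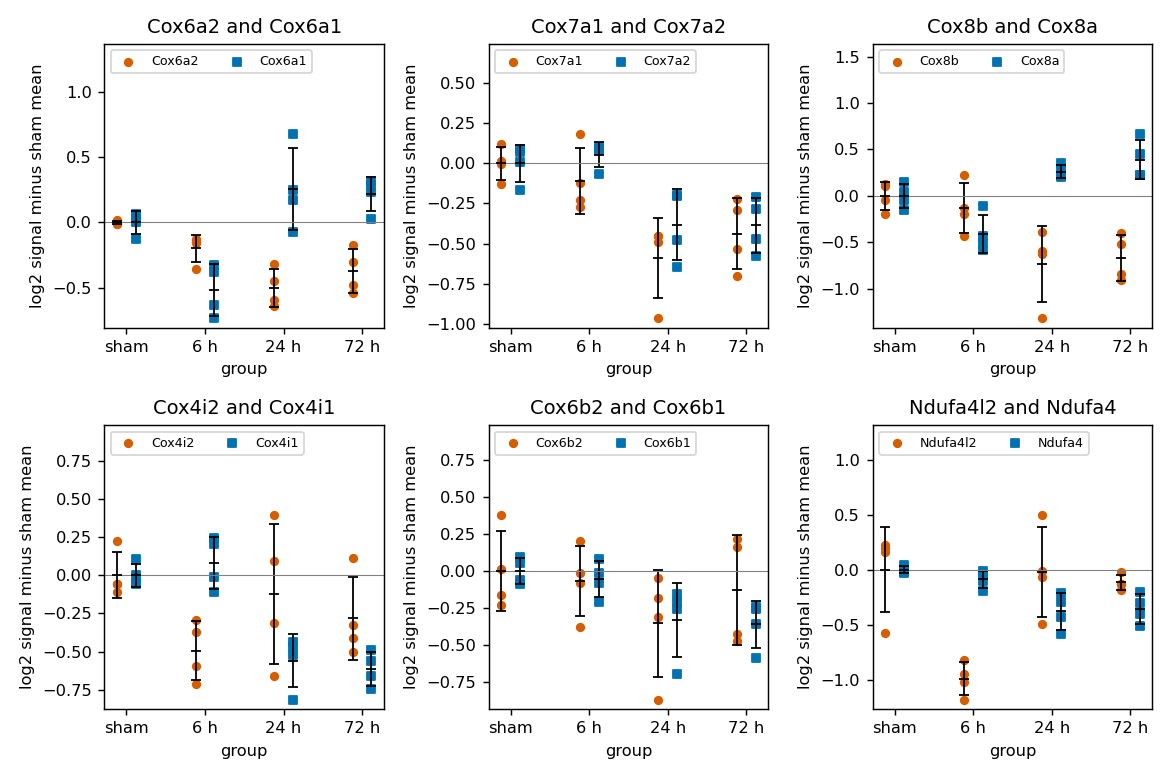
Each panel shows an isoform pair as log2 signal minus the gene's sham mean (vertical axis) in the 4 groups, with 1 point per array and bars for mean ± SD (n = 4). Cox6a1 and Cox8a lie below 0 at 6 h and mostly above 0 at 24 h and 72 h, where Cox6a2 and Cox8b lie below 0, while Cox7a1 and Cox7a2 both lie below 0 at those times.

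Cox4i2, an isoform induced by low oxygen in the lung, lay below background with values of 5.19, 5.53, 5.30 and 5.61 in 6 h hearts, against 5.84, 5.79, 5.84 and 6.12 in sham hearts. The 6 h arrays were all lower, at -0.49 ± 0.20 (adjusted p = 0.0911). Its counterpart Cox4i1, which is needed for assembly of the enzyme, had values of 15.20, 14.86, 15.15 and 15.23 in 24 h hearts, against 15.67, 15.61, 15.62 and 15.78 in sham hearts. Without overlap, Cox4i1 fell by 0.56 ± 0.13 at 24 h (adjusted p = 0.00361) and by 0.61 ± 0.13 at 72 h (adjusted p = 0.00226). Cox6b2, known from testis, and Cox8c, also known from testis, lay below background, and Cox8c fell by 0.60 ± 0.21 at 6 h (adjusted p = 0.0475). For Cox8c at 6 h the call was lost on leaving out any 1 of 11 of the 16 arrays (adjusted p 0.0525 to 0.145). Cox6b2 had values of 3.47, 3.61, 2.79 and 3.35 in 24 h hearts, against 4.03, 3.43, 3.67 and 3.49 in sham hearts. Its ubiquitous counterpart Cox6b1 had values of 16.20, 15.70, 16.15 and 16.24 in 24 h hearts, against 16.34, 16.32, 16.46 and 16.50 in sham hearts. Cox6b1 was -0.33 ± 0.14 (adjusted p = 0.101) at 24 h. Cox7c, a small structural subunit, was -0.03 ± 0.11 (adjusted p = 0.904) at 24 h.

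Ndufa4l2, a paralogue of Ndufa4 that HIF-1 induces under low oxygen, was the 1 gene named for complex I that fell at 6 h. Its values were 6.77, 7.01, 7.12 and 6.93 in 6 h hearts, against 7.37, 8.17, 8.15 and 8.11 in sham hearts. All 6 h arrays were lower, and sham replicate 2 stood below the other sham arrays. It fell by 0.99 ± 0.20 at 6 h (adjusted p = 0.000973) to a mean of 6.96, near background, and its change at 24 h was -0.02 ± 0.20 (adjusted p = 0.954). Ndufa4 itself, named for complex I but now placed in complex IV, had values of 17.80, 17.51, 17.66 and 17.88 in 24 h hearts, against 18.14, 18.06, 18.08 and 18.10 in sham hearts. It fell by 0.38 ± 0.13 at 24 h (adjusted p = 0.0307). For Ndufa4 at 24 h the call was lost without sham replicate 2, 3, 4 or 5 or 24 h replicate 15 or 16 (adjusted p 0.0516 to 0.104).

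Cox7a2l encodes a relative of Cox7a2 whose long form joins complexes III and IV in supercomplexes, and C57BL/6 mice are known to carry a short form that lacks this activity. It was the only one of the 85 genes that differed between 72 and 24 h at the adjusted threshold on the deposited scale. Its values were 13.28, 13.15, 13.23 and 13.33 in 72 h hearts, against 12.79, 11.98, 12.32 and 12.73 in 24 h hearts and 13.40, 13.01, 13.26 and 13.39 in sham hearts. The 72 h arrays lay above all 24 h arrays and within the sham range. It fell by 0.81 ± 0.17 at 24 h against sham (adjusted p = 0.00164) and rose by 0.79 ± 0.17 at 72 h against 24 h (adjusted p = 0.00432), a comparison in which 6.85% of all genes rose and 6.07% fell. The change at 72 h against sham was -0.02 ± 0.17 (adjusted p = 0.954).

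Promoters of Cox6a1, Cox8a and Cox8b are shown because these isoforms are part of the differences described above. No promoter was available for Cox6a2. The promoter of Atp5k, a complex V gene that fell, stands beside them as an example. Each line is the 250 bases before the RefSeq start on GRCm38.p6, read 5′ to 3′ on the gene's strand, with letters matching any of 4 searched motifs in capitals. Cox6a1 is at chr5:115348959-115349208 on the minus strand, Cox8a at chr19:7217617-7217866 on the minus strand, Cox8b at chr7:140900447-140900696 on the minus strand and Atp5k at chr5:108434400-108434649 on the minus strand.
Cox6a1: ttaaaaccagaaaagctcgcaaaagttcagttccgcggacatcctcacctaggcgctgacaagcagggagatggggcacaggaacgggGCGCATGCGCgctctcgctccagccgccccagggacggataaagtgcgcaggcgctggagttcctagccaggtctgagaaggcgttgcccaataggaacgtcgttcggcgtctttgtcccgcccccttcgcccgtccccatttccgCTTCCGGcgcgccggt
Cox8a: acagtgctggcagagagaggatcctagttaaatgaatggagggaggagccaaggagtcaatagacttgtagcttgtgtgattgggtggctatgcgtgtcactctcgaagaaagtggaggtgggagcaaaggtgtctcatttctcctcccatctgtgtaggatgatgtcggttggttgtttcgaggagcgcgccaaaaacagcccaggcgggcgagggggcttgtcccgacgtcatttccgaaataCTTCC
Cox8b: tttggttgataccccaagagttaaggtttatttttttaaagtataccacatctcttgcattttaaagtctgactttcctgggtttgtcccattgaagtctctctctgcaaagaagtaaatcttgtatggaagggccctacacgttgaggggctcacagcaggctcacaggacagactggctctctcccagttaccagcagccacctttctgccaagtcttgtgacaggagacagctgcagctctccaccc
Atp5k: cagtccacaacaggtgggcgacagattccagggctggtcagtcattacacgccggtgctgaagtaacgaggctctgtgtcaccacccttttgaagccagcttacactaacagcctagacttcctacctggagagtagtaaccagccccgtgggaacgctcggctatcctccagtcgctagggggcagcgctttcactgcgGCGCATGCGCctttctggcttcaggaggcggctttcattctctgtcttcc
The motifs were AAGGTCA (known for estrogen-related receptors), GCGCATGC (NRF1), CCGGAAG (ETS factors such as GABPA) and AAGATGGCG (YY1), searched on both strands of 300 bases, 250 before the start and 50 after it. GCGCATGC overlaps its own reverse complement in GCGCATGCGC, and that stretch was counted as 1 promoter. Cox6a1 held the NRF1 and ETS letters, Cox8a the ETS letters, which run past the end of its line, and Cox8b none of the 4. Atp5k held the NRF1 letters in the line shown and the ERR and ETS letters after the start. It does not stand for all genes that fell at 24 h. The next genes are only those that fell at 24 h, have per-array values in this report and had a single promoter available. Of these, Ndufs4, Sdhd, Uqcrc1 and Atp5g3 held at least 1 of the 4 motifs. In Ndufa4, Ndufb10, Ndufv3, Sdha, Uqcrfs1, Cox7a1, Cox7a2 and Cox7a2l none was found. Further genes that fell at 24 h are not listed: some, such as Ndufa8 and Ndufs3, held a motif, and others, such as Ndufa1 and Ndufc2, held none. Of the 85 genes 69 had a promoter in the table. AAGGTCA was in 8 of the 69 (11.6%) and in 5.38% of 27025 genes, GCGCATGC in 10 (14.5%) and 3.05%, CCGGAAG in 17 (24.6%) and 9.93%, and AAGATGGCG in 7 (10.1%) and 1.64%. At least 1 of the 4 was in 32 (46.4%), and in 18.4% of the 27025 genes. Those 27025 are all genes with a promoter, neither limited to the genes tested nor matched for signal. A match describes letters and does not show that a factor binds.

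In complex V, the ATP synthase, 7 of 17 genes (41.2%) fell at 24 h (median -0.37) and 4 of 17 (23.5%) at 72 h (median -0.28). Among all genes 12.3% and 10.3% fell, and among those with a sham mean of at least 12, 36.7% and 28.3%. The complex V share was thus near that of bright genes at 24 h and below it at 72 h. The complex V counts with hybridization spike-in centring were 0 fallen and 0 risen at 24 h and 0 fallen and 3 risen at 72 h, with medians of -0.06 and 0.21. By role at 24 h, 2 of 5 genes of the catalytic F1 part fell and 3 of 4 of the peripheral stalk that holds it still. For the rotating c ring it was 1 of 3 and for small membrane subunits 1 of 5. These role counts leaned on 1 array: without 24 h replicate 15 the calls of all 3 stalk genes (Atp5j, Atp5o and Atp5pb) were lost. The call of Atp5a1 in the F1 part was lost as well. Atp5d, the delta subunit of the F1 central stalk, had values of 15.49, 15.84, 15.20 and 16.03 in 24 h hearts, against 16.61, 16.37, 16.44 and 16.20 in sham hearts. Every 24 h array lay below every sham array. It fell by 0.77 ± 0.16 at 24 h (adjusted p = 0.00146) and by 0.54 ± 0.16 at 72 h (adjusted p = 0.0222). For Atp5d at 72 h the call was lost without sham replicate 2 or 4 or 72 h replicate 20 or 23 (adjusted p 0.0512 to 0.0726). Atp5k, subunit e of the membrane part, had values of 7.58, 7.72, 7.63 and 7.26 in 72 h hearts, against 8.23, 8.19, 8.35 and 8.37 in sham hearts. The groups did not overlap, and it fell by 0.61 ± 0.15 at 24 h (adjusted p = 0.00438) and by 0.74 ± 0.15 at 72 h (adjusted p = 0.0012).

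The 3 Atp5g genes encode the same c-ring protein with different import sequences. Atp5g3 had values of 16.49, 16.12, 16.31 and 16.55 in 24 h hearts, against 16.85, 16.79, 16.94 and 16.89 in sham hearts. It fell by 0.50 ± 0.13 (adjusted p = 0.00567) without overlap. Atp5g1 was -0.31 ± 0.13 (adjusted p = 0.0857) and Atp5g2 was 0.04 ± 0.12 (adjusted p = 0.87) at 24 h, and the differences among the 3 were not tested. Of the catalytic subunits, Atp5a1, the alpha subunit, fell by 0.37 ± 0.12 (adjusted p = 0.0299), and Atp5b, the beta subunit, was -0.17 ± 0.11 (adjusted p = 0.308). Atp5o, the OSCP subunit at the top of the peripheral stalk, fell by 0.44 ± 0.13 at 24 h and fell by 0.44 ± 0.13 at 72 h, where hybridization spike-in centring turned it to 0.0516. For Atp5a1 at 24 h the call was lost without sham replicate 2, 3 or 4 or 24 h replicate 14, 15 or 16 (adjusted p 0.0588 to 0.0915). For Atp5o at 24 h the call was lost without 24 h replicate 15 (adjusted p 0.0709). For Atp5o at 72 h the call was lost without 72 h replicate 20 (adjusted p 0.0545).

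Between times of reperfusion, 41 of the 85 genes were lower and 3 higher at 24 h than at 6 h, with a median of -0.43, where 10.9% of all genes were lower and 17.3% higher. By complex, 21 of 37 genes were lower in complex I, 3 of 4 in complex II, 6 of 9 in complex III, 5 of 18 in complex IV and 6 of 17 in complex V. Ndufs4, at 24 h against 6 h, fell by 0.84 ± 0.17 (adjusted p = 0.00107). The count of 41 was 25 without replicate 15 of the 24 h group, 26 without replicate 8 of the 6 h group, and 0 lower with 11 higher under hybridization spike-in centring. Under that centring 2.76% of all genes were lower and 50.3% higher at 24 h against 6 h. The 3 higher genes were Cox6a1, Cox8a and Ndufa4l2. At 72 h against 6 h, 31 genes were lower and the same 3 were higher, with 13.1% of all genes lower and 17.5% higher. That count of 31 was 20 without replicate 23 of the 72 h group, and 0 lower with 44 higher under hybridization spike-in centring. Of all genes, 2.46% were lower and 69.9% higher at 72 h against 6 h under that centring. Between 72 and 24 h the median was 0.05, with 0 lower and 1 higher.

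The labelled tissue was checked by markers: Myh6, the adult cardiac myosin, had a mean log2 signal of 17.86 in sham hearts and Tnnt2, cardiac troponin T, 18.92. The level of the subunit genes differed among arrays of a group, and markers of other cell types moved with time. The median over the 85 genes, relative to the sham mean, was -0.31, -0.72, -0.43 and -0.27 on the 24 h arrays (replicates 14 to 17) and -0.49, -0.36, -0.24 and -0.51 on the 72 h arrays (replicates 20 to 23). The mean of 10 cardiomyocyte markers was -0.26, -0.57, -0.47 and -0.19 on the same 24 h arrays and -0.16, -0.24, -0.15 and -0.29 on the 72 h arrays, against -0.04 to 0.06 on the sham arrays. Replicate 15 was the lowest 24 h array for both. Of these 10 markers, 5 fell at 24 h and 3 at 72 h, with medians of -0.38 and -0.20. The count of subunit genes fallen at 24 h was 31 without replicate 15, and 38 without replicate 16, on which atrial markers averaged 4.51 above sham. The other 3 arrays of that group had atrial means of 0.28 to 0.31. On the 72 h arrays the atrial means were 0.28, 1.03, 0.15 and 1.18 (replicates 20 to 23), against -0.07 to 0.16 on the sham arrays. Of the 2 higher ones, leaving out replicate 23 gave the 22 genes fallen at 72 h stated above and leaving out replicate 21 gave 29.

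Macrophage markers averaged 0.725 to 1.15 above sham at 6 h, where 2 of 6 rose. They averaged 2.07 to 3.77 above sham at 24 h and 2.98 to 3.72 at 72 h, and all 6 rose at both of these times. Neutrophil markers averaged 3.35 to 5.77 above sham at 6 h, 1.75 to 5.34 at 24 h and 0.88 to 2.32 at 72 h. Fibroblast markers averaged -0.97 to -0.20 relative to sham at 6 h, where 2 of 6 fell. They averaged 0.72 to 1.49 above sham at 24 h and 3.32 to 3.84 at 72 h, where all 6 rose. Sham arrays lay between -0.24 and 0.21 for neutrophil markers, -0.10 and 0.13 for macrophage markers, and -0.25 and 0.37 for fibroblast markers. Of 5 endothelial markers 2 fell at 24 h and 2 at 72 h. T and B cell markers (4 measured) had no member past the threshold, and skeletal muscle markers (5 measured) had 1 fallen and 2 risen at 24 h. The part of the cell makeup in the falls of the subunit genes was not tested.

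**Figure D5:**
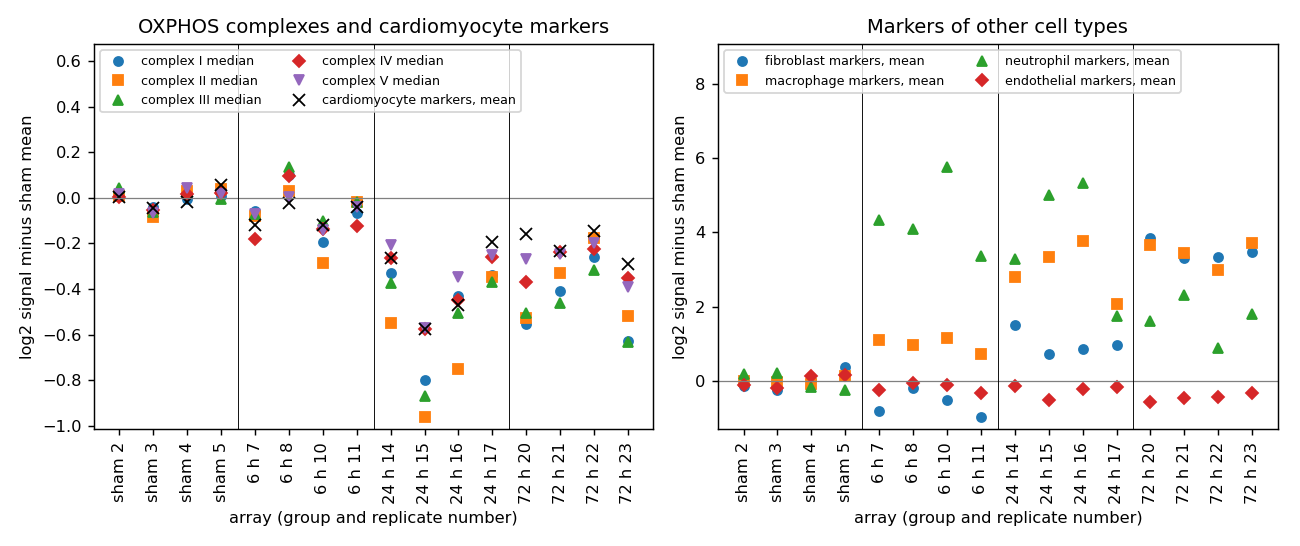
Each array is a position on the horizontal axis, by group and replicate; the left panel shows the median of each complex and the mean of 10 cardiomyocyte markers as log2 signal minus the sham mean, and the right panel the means of 4 other marker lists. Replicate 15 at 24 h is the lowest array for all 5 complexes and for the cardiomyocyte markers at -0.57, while neutrophil markers stand highest at 6 h on replicate 10 and fibroblast markers reach 3.84 at 72 h.

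Other genes of the pathway were read from lists of genes given by name. Beside the counts for each list stand the shares over all genes: 12.3% fallen and 7.92% risen at 6 h, and 12.3% and 13.8% at 24 h. At 72 h they were 10.3% and 11.5%. Among genes with a sham mean of at least 12, 22.2%, 36.7% and 28.3% fell at these times. None of the 13 subunits encoded by mitochondrial DNA was analysed here. Of 43 assembly factors measured, 10 fell and 1 rose at 6 h, 18 fell and 2 rose at 24 h, and 19 fell and 0 rose at 72 h, with medians of -0.32, -0.39 and -0.41. Tmem126b, a complex I assembly factor, fell by 1.50 ± 0.15 at 6 h (adjusted p = 4.1e-07) against sham. At 24 h Foxred1, for complex I, fell by 1.17 ± 0.19 and Atpaf1, for the ATP synthase, fell by 1.03 ± 0.19. At 72 h Ecsit, for complex I, fell by 1.05 ± 0.17 (adjusted p = 0.000105). With hybridization spike-in centring the medians of this list were -0.54 at 6 h, -0.08 at 24 h and 0.09 at 72 h.

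Of 15 genes for mobile carriers and ATP export, 2 fell at 6 h, 11 fell and 1 rose at 24 h, and 7 fell at 72 h. Coq9, needed to make ubiquinone, fell by 1.39 ± 0.19 at 24 h (adjusted p = 2.48e-05), and Coq5, a methyltransferase of the same pathway, fell by 0.99 ± 0.16. Coq7, a hydroxylase of that pathway, fell by 0.87 ± 0.15 at 24 h, and Coq3, another methyltransferase, fell by 1.00 ± 0.16 at 72 h. The 1 that rose at 24 h was Slc25a5, an ADP/ATP carrier, which rose by 0.50 ± 0.14 and was named after its value was seen. Of 13 transcriptional regulators, 4 fell and 1 rose at 6 h, 7 fell at 24 h, and 7 fell and 1 rose at 72 h. Ppara, a nuclear receptor that drives fatty acid oxidation genes, fell by 2.39 ± 0.27 at 24 h (adjusted p = 2.83e-06), and Esrrg, an estrogen-related receptor, fell by 1.14 ± 0.20 at 72 h (adjusted p = 0.000346). At 6 h the coactivator Ppargc1b fell by 2.09 ± 0.19 (adjusted p = 1.75e-07) and Tfb1m, a mitochondrial ribosomal RNA methyltransferase, fell by 1.68 ± 0.21. The 1 regulator that rose at 6 h was Nrf1, which rose by 0.87 ± 0.19 (adjusted p = 0.00271) and was named after its value was seen. The medians of the regulators and of the carriers at 72 h were -0.68 and -0.35 on the deposited scale, and -0.19 and 0.14 with hybridization spike-in centring.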

How the data were processed

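Values are the authors' deposited log2 expression values, 1 per probe set and array, from 16 arrays. They were made with Affymetrix Expression Console, according to the submitters' processing notes; neither its version nor its summarization method is stated. No source names the base of the logarithm, and 2 was assumed. The study's design text gives a different array type and its title different hours; the table's identifiers and the sample labels were followed. Of 28846 probe sets, 19572 had 1 gene symbol; where a gene had several (55 genes), the one highest on average was used, leaving 19505 genes.

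Group means over all 16 arrays were fitted with limma 3.58.1 in R 4.3.3 (residual degrees of freedom 12, prior 6.943) for 6 comparisons, with Benjamini-Hochberg adjustment over 19505 genes. Nothing in the labels says how RNA was pooled or split, so p-values measure the spread between these arrays, and the number of arrays limits the precision (median SE of a log2 change 0.183). The fit was tested on simulated data for 24 h against sham with 200 of 19505 genes changed. It called 7 of 50 genes with a log2 change of 0.5 and 36 of 50 with 1. It called 49 of 50 with 2 and 50 of 50 with 3, and made 12 false calls. In the data far more genes were called at 24 h (12.3% fell and 13.8% rose), which makes the adjustment less strict. The simulated shares of genes found therefore do not carry over to the data. Isoform differences were tested with scipy 1.17.1.

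Per-array values were planned for the 3 genes of each complex (all of complex II) with the largest change past the threshold at 24 h, the comparison with most calls, and for the isoform pairs; for each pathway list, the 4 genes with the largest called change against sham at any time are named, the rule giving no comparison. The genes, lists and tests were chosen with earlier results of these data known. Alternatives covered array scaling, filters on dim genes, variance models, the samples fitted and each array left out.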

Additional observations from a re-analysis of the deposited data

Results flagged for a closer look

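Of 340 groups of 4 arrays (85 genes in 4 groups), 26 held an array apart from the other 3 by Dixon's criterion, where chance flags about 1 in 20 groups, or 17 here. Log2 signals are given with the range of the other 3 arrays.

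Replicate 15 of the 24 h group stood apart for 7 genes: Ndufa12 (16.57, others 16.84 to 16.88), Ndufa13 (15.19, others 15.68 to 15.77), Ndufa3 (16.72, others 17.21 to 17.26), Ndufa5 (15.28, others 15.70 to 15.77), Ndufb2 (13.14, others 13.67 to 13.77), Cox7a1 (15.03, others 15.51 to 15.54) and Atp5md (17.55, others 17.85 to 17.87). Replicate 8 of the 6 h group stood apart for 5 genes: Ndufs8 (16.01, others 15.66 to 15.72), Uqcrq (15.04, others 14.68 to 14.73), Cox6a2 (18.28, others 18.48 to 18.51), Atp5e (10.81, others 10.08 to 10.20) and Atp5k (8.66, others 8.15 to 8.20). Replicate 10 of the 6 h group stood apart for 3 genes: Sdha (12.02, others 12.40 to 12.44), Cox7a2 (13.92, others 14.06 to 14.08) and Atp5pb (16.53, others 16.87 to 16.94). Replicate 22 of the 72 h group stood apart for 2 genes: Ndufa11 (15.32, others 15.04 to 15.06) and Sdhd (15.23, others 14.92 to 14.94). Replicate 3 of the sham group stood apart for 2 genes: Ndufa3 (17.50, others 17.52 to 17.53) and Uqcrfs1 (14.67, others 14.90 to 14.93). Replicate 5 of the sham group stood apart for 2 genes: Cox4i2 (6.12, others 5.79 to 5.84) and Atp5o (16.67, others 16.61 to 16.61). Replicate 2 of the sham group stood apart for 1 gene: Ndufa4l2 (7.37, others 8.11 to 8.17). Replicate 16 of the 24 h group stood apart for 1 gene: Ndufa7 (8.82, others 8.56 to 8.60). Replicate 7 of the 6 h group stood apart for 1 gene: Ndufb9 (17.72, others 17.61 to 17.63). Replicate 11 of the 6 h group stood apart for 1 gene: Ndufs3 (16.34, others 16.52 to 16.55). Replicate 4 of the sham group stood apart for 1 gene: Atp5b (18.74, others 18.81 to 18.82). 

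For the genes described above, the change against sham differed between times by limma's test of the difference itself (adjusted p below 0.05). These are counts among 26 genes, most of them described for the size of their fall at 24 h against sham. The same 24 h arrays enter the comparison with 6 h, so the choice of genes favours that direction and the values are a description. Of all 85 genes, 41 were lower and 3 higher at 24 h against 6 h, and 31 and 3 at 72 h against 6 h. Of all genes tested, 10.9% were lower and 17.3% higher at 24 h against 6 h, and 13.1% and 17.5% at 72 h against 6 h. At 24 h against 6 h, 16 were lower: Ndufs4 (-0.84), Ndufv3 (-0.72), Ndufb10 (-0.78), Sdha (-0.72), Sdhc (-0.69), Sdhd (-0.50), Cyc1 (-0.80), Uqcrc1 (-0.69), Uqcrfs1 (-0.63), Cox8b (-0.60), Cox7a1 (-0.48), Atp5d (-0.46), Atp5k (-0.62), Atp5g3 (-0.48), Cox7a2 (-0.43) and Cox4i1 (-0.64). The adjusted p-values ran from 0.000932 to 0.0419. Another 3 were higher in that comparison: Cox6a1 (0.78), Cox8a (0.67) and Ndufa4l2 (0.97), with adjusted p-values from 0.000882 to 0.00138. At 72 h against 6 h, 9 were lower: Ndufs4 (-0.66), Ndufv3 (-0.63), Ndufb10 (-0.56), Cyc1 (-0.69), Cox8b (-0.53), Atp5k (-0.75), Atp5g3 (-0.47), Cox7a2 (-0.44) and Cox4i1 (-0.69). The adjusted p-values ran from 0.000491 to 0.0423. Another 3 were higher in that comparison: Cox6a1 (0.73), Cox8a (0.80) and Ndufa4l2 (0.88), with adjusted p-values from 0.000225 to 0.00192. At 72 h against 24 h, Cox7a2l was higher by 0.79 (adjusted p = 0.00432). With hybridization spike-in centring, 5 of the 16 (Sdhd, Cox7a1, Cox7a2, Atp5d and Atp5g3) and 8 of the 9 (all but Atp5k) lay above 0. The medians of all genes in those 2 comparisons were then 0.49 and 0.66.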

How the results depend on the processing

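Array scaling moved the counts most. With hybridization spike-in centring, genes lower against sham numbered 8 at 6 h, 10 at 24 h and 0 at 72 h, and genes higher 2 at 24 h and 7 at 72 h. At 24 h against 6 h 0 were lower and 11 higher, at 72 h against 6 h 0 and 44, and at 72 h against 24 h 3 were higher. Of all genes under that centring, 20.5% were lower at 6 h, 4.31% at 24 h and 1.27% at 72 h against sham. The shares higher against sham were 23.3% at 24 h and 37.3% at 72 h. They were 50.3% at 24 h against 6 h, 69.9% at 72 h against 6 h and 9.45% at 72 h against 24 h. With poly-A spike-in centring 15 were lower at 6 h and 7 at 72 h against sham, with 1 higher at 72 h. That setting gave 2 lower at 24 h against 6 h, 0 lower and 11 higher at 72 h against 6 h, and 4 higher at 72 h against 24 h. Of all genes it gave 31.2% lower at 6 h, and 3.025% lower and 14.1% higher at 72 h, against sham. Between times it gave 4.26% lower at 24 h against 6 h, 47.0% higher at 72 h against 6 h and 13.5% higher at 72 h against 24 h. Median centring gave 2 lower at 6 h, 59 at 24 h and 57 at 72 h against sham. It gave 60 lower at 24 h against 6 h and 57 at 72 h against 6 h. The fit of only the 2 groups gave 24 lower at 24 h against 6 h. A single gene was higher at 72 h against sham under quantile normalization, both filters, trend and robust settings, and array weights. Among all genes called, rises were 53.0% at 24 h and 52.9% at 72 h against sham, 84.4% and 96.7% with hybridization spike-in centring, and 45.1% and 82.3% with poly-A centring. At 6 h the shares were 39.2%, 19.6% and 12.4%, and with median centring they were 43.4% at 6 h, 42.6% at 24 h and 34.95% at 72 h.

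With hybridization spike-in centring these called changes turned above 0: at 72 h against sham, Ndufa13 (0.0422), Ndufa3 (0.0529), Ndufa4 (0.14), Ndufb5 (0.0148), Ndufs3 (0.0002), Ndufv1 (0.118), Uqcrq (0.0838), Cox6a2 (0.121), Atp5g3 (0.0033) and Atp5o (0.0516). The same setting turned Sdhd (0.0313), Cox7a1 (0.0497), Cox7a2 (0.0951), Atp5d (0.0691) and Atp5g3 (0.0493) at 24 h against 6 h, and Ndufb10 (0.154), Ndufs4 (0.0572), Ndufv3 (0.0871), Cyc1 (0.0214), Cox4i1 (0.0235), Cox7a2 (0.278), Cox8b (0.183) and Atp5g3 (0.246) at 72 h against 6 h. Poly-A centring turned Cox7a2 (0.0855) and Atp5g3 (0.0543) at 72 h against 6 h. In these cases all genes had shifted by the amounts given above, and further causes were not tested.

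Leaving out each array in turn gave 1 to 4 genes lower at 6 h, 31 to 48 at 24 h and 21 to 44 at 72 h against sham, 25 to 43 at 24 h against 6 h and 20 to 35 at 72 h against 6 h, and 0 to 1 higher at 72 h against sham. It turned no called change of a named gene. Counting Ndufa4 with complex IV and leaving out Ndufa4l2 gave 20 genes lower in complex I and 8 in complex IV at 24 h, and 0 in complex I at 6 h. Leaving out Ndufa4l2, not a subunit of the complex the symbol names, gave 3 genes lower at 6 h against sham and 2 higher at 24 h and at 72 h against 6 h. Averaging probe sets left all values as they were. No paired analysis was possible because no replicate number is shared by 2 groups. With 4 arrays per group a small change can be missed, so a gene not called is not shown to be unchanged.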
